A study of Arabidopsis thaliana with 6 samples.

Results

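The plant subtilases of *Arabidopsis thaliana* are a family of subtilisin-like serine proteases. Of 53 subtilase loci listed by their locus identifiers, 42 were measured by a probe set that names 1 gene, and these 42 are described here out of 13355 genes tested in all. Of the other 11 loci, 4 share probe sets that name several genes (AT3G46840, AT3G46850, AT4G10520 and AT4G10530), and 7 were not matched to a named probe set and were not analysed here (SDD1, ALE1, AIR3, SLP3, XSP1, UNE17 and SLP2). Whole seedlings, 10 days old and grown in liquid Murashige and Skoog medium with sucrose, were harvested 1 h after mock treatment or after addition of 20 nM purified protease IV. Protease IV is itself a serine protease, which *Pseudomonas aeruginosa* PA14, a bacterium that can infect plants and animals, releases into its surroundings. No genotype, accession or transgene is named for either group, and the medium of all seedlings was renewed before the treatment. The labels use both nontreated and mock for the controls, and whether buffer was added to them is not stated there. Each group held 3 Affymetrix arrays labelled as biological replicates. Nothing in the labels says that they came from separate cultures, so the p-values reflect the variation among these samples only, part of which may be technical.

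Most plant subtilases are made with a signal peptide and an inhibitory prodomain, mature in the secretory pathway and act in the cell wall. There they cut other proteins, among them the precursors of signalling peptides and cell wall enzymes, with a catalytic triad of aspartate, histidine and serine. Single members are known for roles in immunity, stomatal patterning, organ abscission and seed coat development, whereas tripeptidyl peptidase II works inside the cell and trims short peptides.

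The values are log2 expression values that the authors made with robust multi-array averaging (RMA). The array medians lay between 6.07 and 6.13, and across all genes the correlation was 0.996 to 0.998 between arrays of a group and 0.953 to 0.963 between groups. The leaf markers PRK, LHCB4.2 and HPR and the root markers PYK10, AT5G66390 and EXPA18 were above the lower quartile of the array on all 6 arrays, and the pollen markers MGH3, AGL66 and AGL104 were not. The 3-prime minus 5-prime difference of an actin control, a sign of RNA integrity, was 1.58 ± 0.0077 in mock and 1.81 ± 0.28 in treated samples (SD, n = 3 each; log2; two-sided exact permutation p = 0.1, the smallest that 20 relabellings allow). Protease IV replicate 3 had the highest value, 2.12. A second actin control gave 3.25 in mock and 3.20 in treated samples (exact permutation p = 1), and for the GAPDH and ubiquitin controls the exact permutation p was 0.3 and 0.8.

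Within 1 h of protease IV, 2 of the 42 measured subtilases rose and 11 fell, and 29 did not pass the threshold of an adjusted p under 0.05 in limma (Benjamini-Hochberg over all 13355 genes). The rising genes were SBT3.3 and SBT3.5, which lie in 1 group of 3 neighbouring loci of the list on chromosome 1. A subtilase that did not pass lies between them. The falling genes included ARA12, SBT1.3 and AT2G05920, and their falls were all smaller than 2-fold. Of all genes tested 11.4% were higher and 22.8% lower, so the shares of the family, 2 and 11 of 42, are to be read against that background. The median difference was -0.02 over the 42 subtilases and -0.06 over all genes, on the log2 scale. After cyclic loess between the arrays, 3 subtilases rose and 6 fell, so that 66.7% of the family's calls were lower against 84.6% with the deposited scaling. Over all genes the lower share of the calls went from 66.6% to 42.4% with that scaling. Without protease IV replicate 3, the array with the highest value of the first actin control, 2 rose and 9 fell. Leaving out any single mock array or protease IV replicate 1 also gave 9 falls, with AT4G20430 and AT5G67090 lost each time. Without protease IV replicate 2 the falls stayed at 11.

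**Figure D1:**
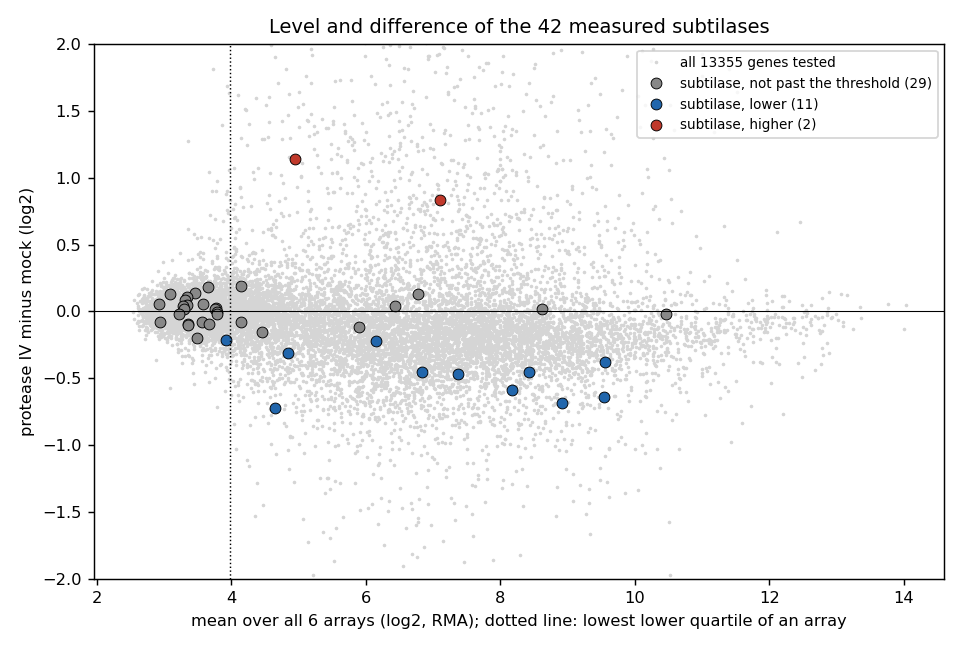
Each point is 1 gene, with the mean over all 6 arrays (log2) on the horizontal axis and the difference, protease IV minus mock (log2), on the vertical axis. Grey dots are all genes tested, of which 294 lie outside the plotted range, and larger points are the 42 measured subtilases. The 2 rising subtilases stand at 1.14 and 0.83, the 11 falling ones between -0.72 and -0.21, and 22 subtilases lie left of the dotted line, the lowest lower quartile of an array (3.97).

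Many subtilases were dim in these seedlings. The mean over all arrays lay below 3.97, the smallest of the 6 lower quartiles, for 22 of the 42 subtilases, or 52.4%, against 28.3% of all genes tested. Values this low lie near the background of the arrays, and its part in the small differences there was not tested. Of those 22 dim subtilases 0 rose and 1, AT5G67090, fell in limma, and the other 21 all had an unadjusted p over 0.05. Calls were rare among all dim genes, with 82 higher and 60 lower of the 3784 below that quartile. Of the 20 brighter subtilases 2 rose and 10 fell, whereas among all genes above that quartile 15.1% were higher and 31.1% lower. The median difference of these 20 was -0.19, against -0.12 over all genes above the quartile.

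SBT3.3, which is linked to the priming of immune responses, had the largest difference of the family. Its level on the mock arrays was 4.44, 4.01 and 4.69, and on the protease IV arrays 5.38, 5.48 and 5.70. Every treated array lay above every mock array, although the mock arrays had the widest spread of all 42 subtilases. The means were 4.38 ± 0.34 and 5.52 ± 0.16 (SD, n = 3 each), a rise of 1.14 (SE 0.15, limma, adjusted p = 0.000211) or 2.20-fold. It was the only measured subtilase to pass with at least 2-fold, a size reached upwards by 4.51% of all genes. A larger rise was measured in 3.98% of all genes. Leaving out single arrays gave rises between 0.96 and 1.30.

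SBT3.5, which acts in roots on a pectin methylesterase of the cell wall, measured 6.66, 6.83 and 6.56 in mock. On the protease IV arrays it measured 7.54, 7.38 and 7.63, again with no overlap between the groups. The rise was 0.83 (SE 0.096, limma, adjusted p = 6.68e-05) or 1.78-fold, with a 95% interval of 0.62 to 1.04. Both rises passed under every one of the 16 alternatives tried, with differences of 0.75 to 1.01 for SBT3.5.

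The third gene of this group, AT1G32950, lies between SBT3.5 and SBT3.3 and did not pass. Its values were 3.99, 3.94 and 4.19 in mock and 4.31, 4.19 and 4.21 with protease IV, and the lowest treated array lay just under the highest mock array. The difference was 0.19 (95% interval 0.003 to 0.38, limma, adjusted p = 0.113). Its mock mean, 4.04, lies near the lower quartile of the arrays. It passed in limma without mock replicate 3, at a difference of 0.27 and an adjusted p = 0.0443. The adjusted p ranged from 0.0443 to 0.504 over its alternatives. In the RefSeq annotation (TAIR10.1) the spans of SBT3.5 and AT1G32950 overlap, and 1 other annotated gene lies between AT1G32950 and SBT3.3. All 42 subtilases, these 3 included, were measured by probe sets with the plain _at suffix, which Affymetrix gave to sets designed for a single transcript. Within 5 annotated genes on either side of the 3 genes, 3 genes were measured. Of these AT1G32920 rose by 2.56 (limma, adjusted p = 4.70e-08), and AT1G32970 and AT1G32980 did not pass, at 0.04 and 0.02. These 3 flanking genes are not in the list of loci, and whether any of them encodes a subtilase was not checked here.

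**Figure D2:**
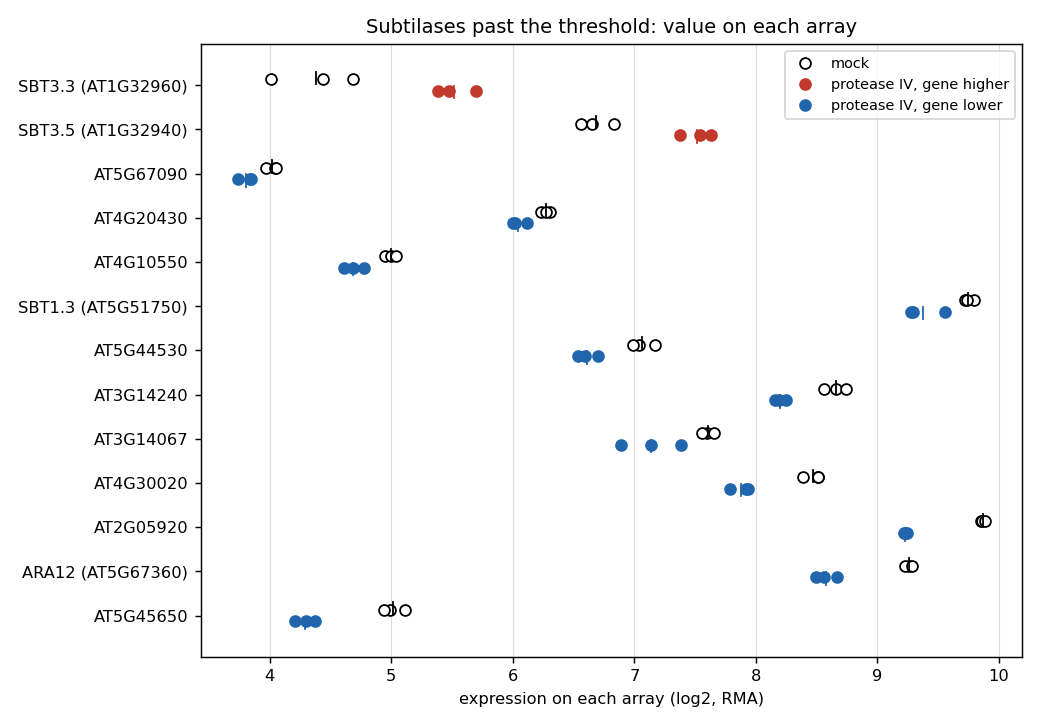
Each point is the value of 1 subtilase on 1 array (log2), with mock as open circles, protease IV as filled circles (red for rising, blue for falling genes) and short lines at the group means of 3 arrays. The 13 subtilases past the threshold are shown, and in each of them all 3 treated arrays lie outside the range of the mock arrays.

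Among the falling subtilases, AT5G45650 had the largest difference. It measured 4.99, 5.11 and 4.94 in mock and 4.21, 4.30 and 4.37 with protease IV, where all treated arrays were below all mock arrays. It fell by 0.72 (SE 0.080, limma, adjusted p = 5.17e-05), which is 1.65-fold, and a larger fall was measured in 3.01% of all genes. Its treated mean, 4.29, lies close to the lower quartile of the arrays.

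ARA12, a subtilase known from the seed coat, where it is needed for the release of mucilage, was a well expressed gene in these seedlings. Its mock arrays gave 9.26, 9.23 and 9.28 and its protease IV arrays 8.49, 8.56 and 8.67. The groups were well apart, and the mock arrays differed among themselves by little. ARA12 fell by 0.68 (SE 0.076, limma, adjusted p = 4.99e-05), or 1.61-fold.

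AT2G05920 showed the closest replicates of all the falling subtilases, with 9.85, 9.86 and 9.89 in mock and 9.21, 9.24 and 9.23 with protease IV. The SD was 0.017 and 0.014 (n = 3 each), and the gene fell by 0.64 (SE 0.068, limma, adjusted p = 3.65e-05). AT4G30020 measured 8.38, 8.51 and 8.51 in mock and 7.79, 7.94 and 7.92 with protease IV. It fell by 0.59 on the log2 scale (SE 0.078, limma, adjusted p = 0.000191). These genes and ARA12 also passed under all 16 alternatives.

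AT3G14067 and AT3G14240, the measured subtilases of chromosome 3, both fell. AT3G14240 went from 8.56, 8.66 and 8.74 to 8.25, 8.19 and 8.16, a fall of 0.46 on the log2 scale (limma, adjusted p = 0.000979). AT3G14067 went from 7.60, 7.66 and 7.56 to 6.89, 7.38 and 7.14, a difference of -0.47 (limma, adjusted p = 0.00849). Its treated arrays spread over a wider range (SD 0.24) than its mock arrays (SD 0.049). With cyclic loess its difference was -0.29 and did not pass (limma, adjusted p = 0.0653), and that of AT3G14240 was -0.27 and passed.

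AT5G44530 measured 7.04, 7.17 and 6.99 in mock and 6.60, 6.53 and 6.70 with protease IV, and fell by 0.46 (SE 0.081, limma, adjusted p = 0.00139), or by 0.28 with cyclic loess. SBT1.3 measured 9.72, 9.79 and 9.74 in mock and 9.29, 9.27 and 9.55 with protease IV. Protease IV replicate 3 stood nearest to the mock arrays for SBT1.3, yet below all of them. The difference of SBT1.3 was -0.38 (SE 0.089, limma, adjusted p = 0.00781), and -0.20 with cyclic loess, where it did not pass (limma, adjusted p = 0.138).

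The other 3 falling subtilases changed less. AT4G10550 went from 4.950, 4.998 and 5.043 to 4.683, 4.611 and 4.772, a difference of -0.31 (limma, adjusted p = 0.00918) that did not pass with cyclic loess (-0.23, limma, adjusted p = 0.0596). AT4G20430 went from 6.310, 6.228 and 6.271 to 6.001, 6.119 and 6.016, a difference of -0.22 (limma, adjusted p = 0.0363). AT5G67090 went from 3.97, 4.04 and 4.05 to 3.74, 3.85 and 3.83, a difference of -0.21 (limma, adjusted p = 0.0432). The groups did not overlap in any of the 3 genes, but the last 2 stood close to the threshold. AT4G20430 and AT5G67090 lost their call on leaving out mock replicate 1, 2 or 3 or protease IV replicate 1 or 3, and also with a variance trend or with cyclic loess, where AT4G20430 was at -0.07. Over the alternatives the adjusted p in limma ranged from 0.0175 to 0.544 for AT4G20430 and from 0.0269 to 0.126 for AT5G67090.

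All 13 called subtilases had groups that did not overlap, and none of the 29 others did. Among all genes the groups did not overlap upwards in 14.7% and downwards in 31%, against 2 and 11 of the 42 subtilases. The smallest difference called was 0.21 and the largest one not called 0.20 in size. Call and size come from the same fit, so this order is not a separate result about the members. Leaf markers fell in the same samples, with PRK at -0.49, LHCB4.2 at -0.77 and HPR at -0.39, all 3 past the threshold in limma, and 1 of 3 root markers fell, EXPA18 at -0.34. All 3 markers of the stomatal lineage fell as well, with SPCH at -0.51, FMA at -0.61 and the dim MUTE at -0.31. None of the 3 pollen markers passed. The part of cell type composition in the falls of the subtilases was not tested, and in whole seedlings fewer cells of a type and less RNA per cell cannot be told apart.

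**Figure D3:**
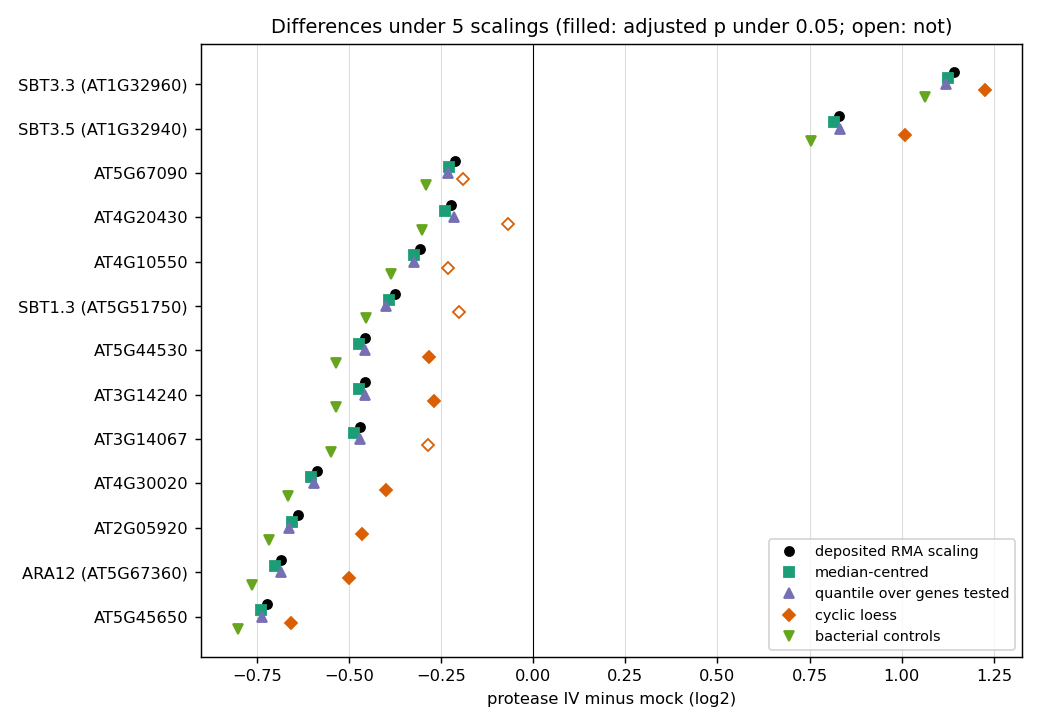
For each of the 13 subtilases past the threshold, the difference protease IV minus mock (log2) is shown under 5 scalings of the arrays, filled where the adjusted p in limma was under 0.05. With cyclic loess (orange diamonds) the falls are smaller and 5 of them are open, whereas SBT3.3 and SBT3.5 are filled throughout at 0.75 or more.

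Some subtilases known to process signalling peptides were among the members that did not pass. Whether called members process such peptides too was not checked here. SBT5.2 (AT1G20160), which cuts the precursor of a stomatal spacing peptide and, with SBT4.12 and SBT4.13, that of the abscission peptide IDA, measured 6.38, 6.42 and 6.43 in mock and 6.34, 6.64 and 6.37 with protease IV. The groups of SBT5.2 overlapped, and the difference was 0.04 with a 95% interval of -0.16 to 0.25 (limma, adjusted p = 0.771). SBT4.12 measured between 8.57 and 8.67 in mock and between 8.44 and 8.75 with protease IV, a difference of 0.02 (95% interval -0.19 to 0.22). SBT4.13 was dim, with a mean of 3.59 in mock and 3.39 with protease IV, and differed by -0.20 (limma, adjusted p = 0.185). SBTI1.1, which cuts a precursor of the growth peptide phytosulfokine, measured 5.81 to 6.10 in mock and 5.79 to 5.88 with protease IV and differed by -0.12 (95% interval -0.31 to 0.08).

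TPP2, the intracellular tripeptidyl peptidase, measured 10.46, 10.47 and 10.51 in mock and 10.42, 10.47 and 10.49 with protease IV. The groups overlapped, and the difference was -0.02 with a 95% interval of -0.17 to 0.14 (limma, adjusted p = 0.896). AT1G30600 differed by 0.13 (limma, adjusted p = 0.335) and rose with cyclic loess, at 0.30 (limma, adjusted p = 0.0296). SBT3.12 differed by -0.15 and AT1G66220 by -0.08, and neither passed. TPP2, AT1G30600, SBT3.12, AT1G66220, AT1G32950, SBT5.2, SBT4.12 and SBTI1.1 make up the 8 brighter subtilases that did not pass, with differences between -0.15 and 0.19.

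The dim members that did not pass were SBT4.13, SBT5.4, which causes a fasciated shoot when overexpressed, and 19 genes known here by locus only. On chromosomes 1 and 2 these were AT1G20150, AT1G66210 and AT2G39850. On chromosome 4 they were AT4G10510, AT4G10540, AT4G15040, AT4G21323, AT4G21630, AT4G21640 and AT4G21650. On chromosome 5 they were AT5G03620, AT5G11940, AT5G45640, AT5G58820, AT5G58830, AT5G58840, AT5G59100, AT5G59130 and AT5G59190. Their differences ranged from -0.20 for SBT4.13 to 0.18 for AT5G03620. The widest spread was in AT4G10510, where protease IV replicate 3 measured 3.92 and the other arrays between 3.29 and 3.45.

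By position, the 9 measured subtilases of chromosome 1 held both rises and 0 falls. The 33 on the other nuclear chromosomes held 0 rises and all 11 falls, of which 5 were on chromosome 5, 3 on chromosome 4, 2 on chromosome 3 and 1 on chromosome 2. This split was noticed in the values and was not tested. Of the 53 loci 28 lie in 10 groups of neighbours, in which at most 4 other annotated genes separate a subtilase from the next. Within these groups 24 subtilases were measured, of which 15 were dim, 2 rose and 2 fell. Of the 18 measured subtilases outside such groups 7 were dim, 0 rose and 9 fell. Among all genes 11.4% were higher and 22.8% lower, or 15.1% and 31.1% of those above the quartile, and the counts by position were not tested against these shares.

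Values varied within the groups of neighbours. AT5G45650 fell by 0.72, whereas AT5G45640 beside it differed by 0.02 at a dim level of 3.30. In the group of 5 loci on chromosome 4 that begins with AT4G10510, AT4G10550 fell and the other 2 measured genes did not pass, at 0.14 and -0.08. In the group that holds SBT4.12, the 3 other measured members, AT5G59100, SBT4.13 and AT5G59130, were all dim. The 3 genes from AT4G21630 to AT4G21650 and the 3 from AT5G58820 to AT5G58840 were all dim, and none of them passed.

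**Figure D4:**
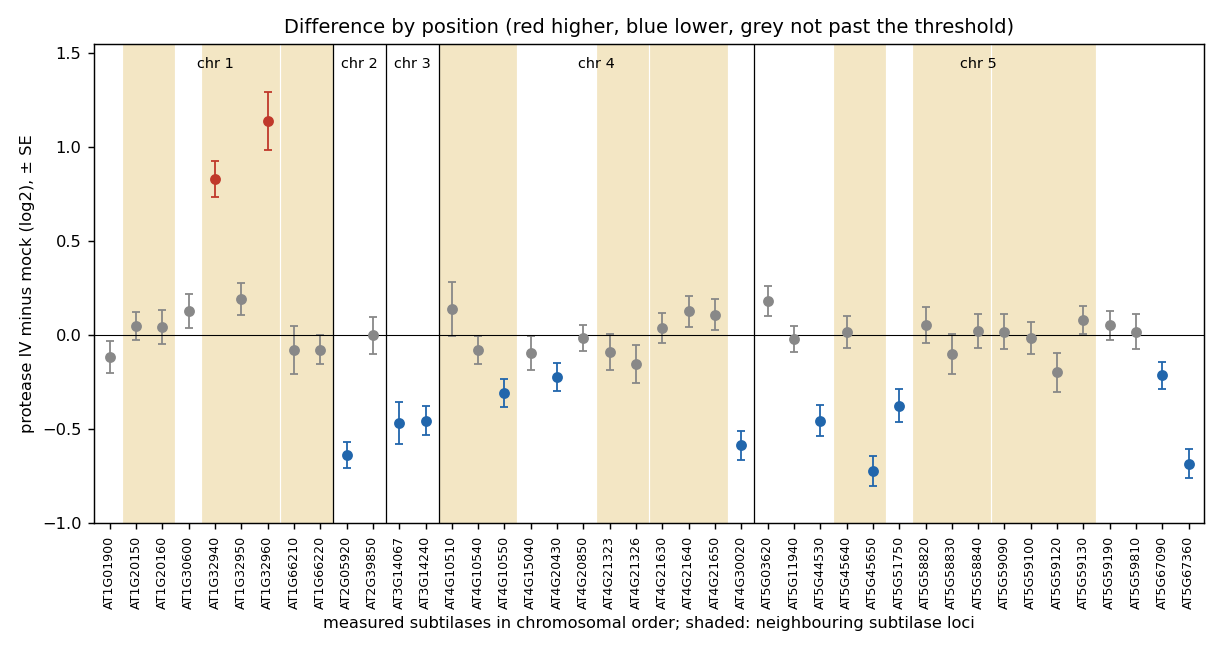
The 42 measured subtilases are in chromosomal order along the horizontal axis, with the difference protease IV minus mock (log2) and its SE from limma on the vertical axis. Shaded bands are neighbouring subtilase loci and vertical lines separate chromosomes. The 2 rises (red) stand in 1 band on chromosome 1, and the 11 falls (blue) are on chromosomes 2, 3, 4 and 5, with 2 of them in bands.

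Genes that subtilases act on or with, and the subtilase S1P itself, were taken as a list of 17. Of these 6 were measured, 2 higher, 2 lower and 2 not past the threshold, with a median difference of -0.06. BZIP28, a membrane-bound transcription factor, rose by 0.83 (SE 0.079, limma, adjusted p = 1.59e-05), and S1P, which is not among the 53 loci, fell by 0.38. The other gene called higher was AT1G71950, at 0.43, and the other called lower AT5G01075, at -0.37. BZIP17, which is cut by S1P, differed by -0.13 and did not pass. The signalling peptide gene CLE40 was dim, at 3.24 in mock and 3.25 with protease IV, and did not pass either, at 0.01.

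Other protease families showed both directions beside the subtilases. Of 10 measured papain-like cysteine proteases 1 rose and 6 fell (median -0.27), and of 29 measured serine carboxypeptidase-like genes 0 rose and 10 fell (median -0.11). Of 13 metacaspases and vacuolar processing enzymes 4 were measured, all of the second kind, of which ALPHA-VPE rose by 1.00 and GAMMA-VPE fell by 0.64, and of 3 aspartic proteases APA1 fell by 0.71. The matrix metalloproteases, secreted zinc-dependent proteases, had 5 measured members, of which 3 rose and 0 fell (median 0.60). Among them AT1G24140 went from 3.69 ± 0.12 to 8.26 ± 0.19 (SD, n = 3 each), with a mock mean below the lower quartile of the arrays. Against the 11.4% higher and 22.8% lower of all genes, or 15.1% and 31.1% of those above the quartile, these families were not tested, nor against the subtilases.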

How the data were processed

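Transcripts were measured on 6 Affymetrix arrays, 3 per group. The deposited values are log2 expression values that the authors made with RMA in affy 1.36.1, per the submitters' processing notes. RMA removes background, forces the arrays to a common distribution and combines the probes of a set into 1 value, so a change in total mRNA cannot be read from it. The settings used for RMA are not stated in the labels. Precision is limited by the number of arrays.

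The table held 22810 probe sets, 64 of them controls. The annotation of the platform in GEO, some years old, gave 1 gene for 13513 of them, several for 503 and none for 8730. By Entrez identifier or locus, 13484 single-gene sets had an entry in RefSeq (assembly TAIR10.1), which was used only for names and gene order. The set with the highest mean was kept where a gene had more than 1 (147 genes, none of them a subtilase). All subtilases with such a set are named, with values on every array for those past the threshold and for others named in the text by a rule on known role or level. Subtilases without a symbol in RefSeq are given by locus.

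Differences, protease IV minus mock, were fitted in R 4.3.3 with the lmFit and eBayes functions of limma 3.58.1 (all 6 arrays, no covariates, two-sided, Benjamini-Hochberg over 13355 genes, threshold 0.05), and the fit was tested on simulated data. SE and 95% intervals come from this fit. The members and lists were chosen with earlier results of these data known. Alternatives were a block for the replicate number, leaving out each array in turn, 3 scalings, a filter on dim genes, 2 variance models, another choice of probe set and all probe sets. Centring on bacterial controls was added after seeing the data.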

Additional observations from a re-analysis of the deposited data

How the results depend on the processing

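Across 16 alternatives SBT3.3, SBT3.5, AT5G45650, ARA12, AT2G05920, AT4G30020, AT3G14240 and AT5G44530 kept their direction and their side of the threshold in each setting that tested them, and no called subtilase changed sign. Cyclic loess moved the number of falling subtilases the most, from 11 to 6, and 3 rose there. The cause was not tested. Without single arrays 2 to 3 subtilases rose and 9 to 11 fell. With a variance trend 2 rose and 9 fell, and with median-centred arrays, quantile normalization over the genes tested, robust moderation, the other choice of probe set, all probe sets or centring on bacterial controls the counts were 2 and 11. With only genes whose higher group mean was at least 5, 16 subtilases could be tested, and 2 rose and 9 fell. Of all 7805 genes kept by that filter, 18.1% were higher and 40.9% lower. The median over all genes was 0.01 with cyclic loess and -0.14 with bacterial controls, against -0.06. Of all 22746 probe sets without controls 2888 were higher and 5689 lower, against 1525 and 3039 of 13355 genes. More features were tested there, but both shares were also larger than over the genes, and why was not tested. The replicate numbers did not pair the arrays (correlations of deviations 0.04, -0.10 and -0.18). With the number as a replicate block 2 subtilases rose and 9 fell, AT4G20430 and AT5G67090 not passing. For 22 of the 42 subtilases the signal lay near background, and its part in their differences was not tested. Their SE lay between 0.069 and 0.145, and that of the 20 brighter subtilases between 0.068 and 0.154. Many loci of the other lists were not measured by a named probe set.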
